A study of Danio rerio with 24 samples.

Results

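The libraries described here are the 12 guide-free ones of a zebrafish series of 24: 3 replicates from each of 4 transgenic lines, taken from 4 tables of gene abundance and joined by gene identifier. The series set out to measure how well and how specifically CRISPR-Q, a heat-inducible system for knocking down or activating chosen genes, acts on its targets. All 12 libraries come from double transgenic (2Tg) embryos, which carry the CRISPR-Q components and lack a guide RNA. The smn1 line and the tardbp line (whose guide array was designed for tardbp and its paralog tardbpl) carry the knockdown version, CRISPR-QKD. The lin28a line and the sox9b line carry the activation version, CRISPR-Qa. In every group the driver QFvpr sits behind the promoter of the heat shock gene hsp70l. Embryos of all groups were kept in E3 medium at 28.5 °C under 14 h light and 10 h dark, were warmed for 1 h at 2 and at 3 days post fertilization (dpf), and were taken whole for RNA at 4 dpf. Nothing in the labels says whether replicates came from separate clutches, so the p-values below measure the spread between these libraries, which may be partly technical. Line, clutch, day of collection and sequencing batch cannot be told apart. Each library is of whole embryos, how many were pooled is not stated, and no unheated or wild-type library is used here.

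A zebrafish embryo of this age has hatched or is hatching and is completing several organs: fast skeletal muscle already dominates the body, the retina and lens mature, the pancreas starts to make digestive enzymes, and the blood still carries embryonic haemoglobins that are replaced later by adult ones. Heat shock proteins are chaperones that are transcribed within minutes of warming and fall back as the stress ends. In whole-embryo RNA, fewer cells of a type and less RNA per cell cannot be told apart.

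Abundance was given as TPM, a unit that scales each gene to its length and to the library total. It carries no read depth, so values have no counting interval. Of 25432 genes per library, 2507 to 3522 were listed at 0 and 18291 to 19590 reached 1 TPM. Markers of 23 tissues and cell types were checked, and most were present throughout: 49 to 50 of 50 neuronal and 65 to 67 of 68 contractile muscle genes reached 1 TPM. The lists with the smallest share of members at 1 TPM in some library were those of the hatching gland (4 to 10 of 12), the pituitary (6 to 11 of 16), the intestine (22 to 40 of 40), hair cells and ear (17 to 22 of 28), photoreceptors (39 to 54 of 59), bone (18 to 23 of 26) and the exocrine pancreas, with 11 of 34 members at 1 TPM in tardbp replicate 1 and up to 33 elsewhere, and of 60 lens crystallins 48 to 51 reached it. One technical feature crossed the lines. Values of 6 libraries were written with 6 decimals (smn1 replicates 1 and 2, tardbp replicate 2 and all of sox9b) and values of the other 6 with 6 significant digits (smn1 replicate 3, tardbp replicates 1 and 3 and all of lin28a). The closest library by correlation shared this number format for 11 of 12 libraries and the line for 5 of 12. The 5 are among the 11, and any library has more partners of its own format than of its own line. These counts thus do not weigh format against line. Tables were deposited separately for each line, and levels set across lines below carry both differences.

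The most abundant transcripts were those of muscle contraction and mitochondrial respiration. Of the 20 genes with the highest TPM averaged over the 4 lines, 7 were mitochondrially encoded, and 7 of the other 13 encode proteins of the muscle fibre. The first place went to mt-co2, a subunit of cytochrome c oxidase encoded by the mitochondrial genome, with 20733, 22821 and 26248 TPM in the lin28a line, 14297, 17318 and 19289 in the smn1 line, 16369, 15396 and 18442 in the tardbp line and 16173, 14202 and 17472 in the sox9b line. The lin28a libraries stood above the other 9, and the log2 difference of 0.49 (SE 0.13, adjusted p = 0.0445) passed the limma test of that line against the other 3. Next came actc1b, a muscle actin, at 11316 to 21004 TPM over the 12 libraries, and its lines overlapped. The parvalbumins pvalb2 and pvalb1, which bind calcium in fast muscle, ranged over 6184 to 19026 and 7372 to 17653 TPM, with the lowest value of both in tardbp replicate 1. The tropomyosin gene tpma was far steadier, at 10328 to 12464 TPM. Translation was represented by eef1a1l1, an elongation factor, at 6733 to 9535 TPM, and yolk and liver lipid transport by the apolipoprotein gene apoa2 at 4672 to 6965 TPM.

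Fold differences here and throughout are on the log2(TPM + 1) scale, with p adjusted by the Benjamini-Hochberg method over 20425 genes tested with limma, which called 6.24% of them in the lin28a line. Of these 20 genes, 4 were called there: mt-co2 and mt-co3 were higher, and krt4 and hspb1 were lower. Keratin krt4, which forms intermediate filaments in the skin, had 3075, 2703 and 3170.3 TPM in the lin28a line, against 3530.1 to 5896 TPM in the other 9 libraries, a log2 difference of -0.73 (SE 0.14, adjusted p = 0.0219). The small heat shock protein gene hspb1 had 1485, 1975 and 2335 TPM in the lin28a line and 2571 to 8329 TPM elsewhere, a log2 difference of -1.20 (SE 0.21, adjusted p = 0.0178). Its highest values were in the sox9b line (5473, 8329 and 6795 TPM) and in smn1 replicate 1 (7099 TPM), while the tardbp libraries lay close together at 2701, 2738 and 2571 TPM.

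Mitochondrially encoded genes together took 10.4 ± 1.57% of the TPM in the lin28a line, 8.60 ± 0.404% in the smn1 line, 8.28 ± 0.554% in the tardbp line and 8.20 ± 0.806% in the sox9b line (SD, n = 3 each). An exact permutation test over all 15400 ways of splitting 12 libraries into 4 groups of 3 did not separate the lines (p = 0.0592, largest gap between line means 2.24 percentage points). The 100 most abundant genes held 40.7 ± 0.962% of the TPM in the lin28a line and 38.7 ± 1.22% in the tardbp line, the highest and the lowest line means (SD, n = 3 each; exact permutation p = 0.229). For the 20 most abundant genes alone the same exact permutation test gave p = 0.0063, with 19.5 ± 0.737% in the lin28a line and 16.6 ± 0.748% in the tardbp line. For the 500 most abundant genes this exact permutation test gave p = 0.458. These p-values were not adjusted for the number of cut-offs tried.

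The 12 steadiest named genes across lines, replicates and number formats included genes of mitochondria, of the vacuolar ATPase and of muscle. Clone-coded genes were passed over. Steadiness was measured as the SD of log2(TPM + 1) over the 12 libraries among 5649 genes with a mean of at least 20 TPM, whose median SD was 0.289. The smallest SD, 0.0485, belonged to slc25a5, the carrier that exchanges ADP and ATP across the inner mitochondrial membrane. It had 4162, 3931 and 4101 TPM in the smn1 line, 4088, 3908 and 3712 in the tardbp line, 3923, 3945 and 4046 in the lin28a line and 4109.9, 3812 and 4002 in the sox9b line, and the lines overlapped throughout. Vacuolar ATPase subunit genes atp6v1e1b (139 to 162 TPM, SD 0.0648) and atp6v1h (67.8 to 82.1 TPM, SD 0.0936) were among these 12 named genes. So were the respiratory complex I subunit genes ndufs7 (150.1 to 177 TPM, SD 0.0688) and ndufa9a (123 to 148 TPM, SD 0.0897), and vdac2, a channel of the outer mitochondrial membrane (666 to 785 TPM, SD 0.0738). The fast myosin light chain gene mylpfa varied over 6514 to 7564 TPM with an SD of 0.0703. The tropomyosin gene tpma varied over 10328 to 12464 TPM with an SD of 0.0801. The others of the 12 were dldh, a dehydrogenase subunit of mitochondria (SD 0.0806), the Golgi SNARE gene gosr1 (SD 0.0839), dalrd3 (SD 0.0889) and the translation initiation factor gene eif3ea (SD 0.0898).

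Most genes often used to normalise zebrafish expression had a spread below that of the median gene. Of 38 common reference genes, 26 had an SD at or below the median of genes of at least 20 TPM and 12 had a larger one. Ribosomal protein gene rpl4 was the steadiest, with 1506 to 1859.5 TPM and an SD of 0.0946, and rpl5b had an SD of 0.129. The cytoplasmic actin genes actb1 and actb2 had SDs of 0.266 and 0.271, near the median. At the uneven end were the Hsp90 co-chaperone gene ahsa1a (9.41 to 71.6 TPM, SD 0.767), the ornithine decarboxylase antizyme gene oaz1b (47.6 to 117 TPM, SD 0.537) and b2m, the light chain of MHC class I (5.09 to 13.2 TPM, SD 0.453). Of the 38, 4 passed the test in the lin28a line against the other lines, where 6.24% of all genes did. The glycolytic gene gapdh was higher there, at 2153, 2069.7 and 2045 TPM against 1168 to 1631 TPM (log2 difference 0.48, SE 0.11, adjusted p = 0.0337). Lower there were ywhaz, a 14-3-3 protein (-0.53, adjusted p = 0.0388), ssr1, a translocon subunit (-0.55, adjusted p = 0.0414), and b2m (-0.74, adjusted p = 0.0403). For oaz1b the 6 libraries written with 6 decimals had 78.6 to 117 TPM, and the 6 written with 6 significant digits had 47.6 to 57.5 TPM, with no overlap.

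**Figure D1:**
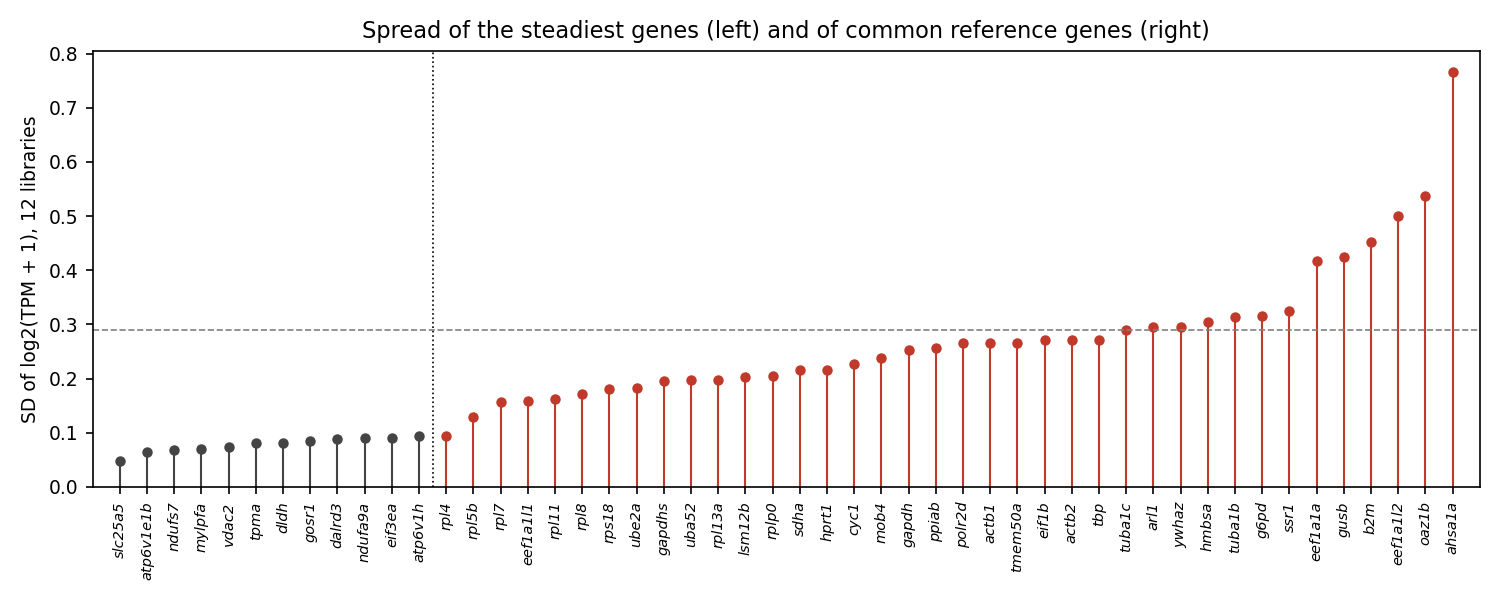
Spread of the 12 steadiest named genes (dark, left of the dotted line) and of 38 common reference genes (red, right), as the SD of log2(TPM + 1) over the 12 guide-free libraries. The dashed line is the median SD, 0.289, of genes with a mean of at least 20 TPM, and rpl4 lies lowest and ahsa1a highest among the reference genes.

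Within lines, the digestive enzymes of the exocrine pancreas varied most. Among 9817 genes with a mean of at least 10 TPM, the 15 named genes of largest pooled SD within lines (2.06 to 2.87 on the log2(TPM + 1) scale) included 10 of the exocrine pancreas list, and for 13 of the 15 the lowest value, or a tie for it, was in tardbp replicate 1. The elastase gene ela2 had 19.2, 1188 and 27.6 TPM in the 3 smn1 libraries and 0, 176 and 214 in the 3 tardbp libraries. It had 2339.6, 874 and 747 TPM in the lin28a line and 587, 152 and 346 TPM in the sox9b line. The serine protease gene prss59.2 had a like pattern, with 214, 2569 and 240.1 TPM in the smn1 line, 3.68, 630.2 and 875 in the tardbp line, 4272, 2062 and 1732 in the lin28a line and 1203, 579 and 998 in the sox9b line. Replicate 2 was thus the high library of the smn1 line and replicate 1 the low library of the tardbp line for both enzymes. The bile acid binding gene fabp6 of the intestine (31.2, 423 and 55.1 TPM in the smn1 line, 0, 164 and 145 TPM in the tardbp line) and the chitinase gene chia.2 (26.8, 696 and 39.3 and 1.01, 172 and 159 TPM in the same lines) had the same high and low libraries.

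Summed over the 34 matched genes, the exocrine pancreas list took 1162, 15556 and 1381 TPM in the smn1 line, 221, 3194 and 4389.6 TPM in the tardbp line, 26796, 12223 and 10879.6 TPM in the lin28a line and 7069.9, 2826 and 5118 TPM in the sox9b line. Other tissues moved in the library with the lowest sum, tardbp replicate 1. It had the lowest photoreceptor sum of the 12 libraries, 903 TPM, while the other 2 tardbp libraries had 5697 and 6657 TPM. Its sums were the highest of all 12 for the hatching gland (660.3 TPM, against 212 and 309.6 TPM in its sister libraries), the cell cycle (5362 TPM, against 3335 and 3091), neural progenitors (1597 TPM, against 1123 and 1127) and red blood cells (24242 TPM, against 8615 and 11103). Where the tardbp libraries spread by more than 1 on the log2 scale (4383 genes), replicate 1 was the farthest from the median for 60.8% of genes. For the sox9b line it was replicate 3, for 69.7% of 3140 genes. Embryos were taken at the same labelled age, and whether these libraries differ in stage was not tested.

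Not all genes with a large spread within lines belonged to the gut. An actin entry named actc1a (ENSDARG00000076126) had 239.8, 194 and 31.5 TPM in the smn1 line, 32.6, 105 and 17.9 in the tardbp line, 0, 194 and 118 in the lin28a line and 26.7, 53.5 and 29.1 in the sox9b line, an order unlike that of the pancreas genes. Another entry has the same name and actin genes are close copies, so the assignment of reads to this one is uncertain. The mitochondrial gene mt-atp8 lies partly over mt-atp6. It had 187 to 396 TPM in the 6 libraries of 6 decimals and 0 to 59.8 TPM in the 6 libraries of 6 significant digits. Between those same libraries mt-atp6 ranged only over 8017 to 11363 TPM. The limma test of number format within lines, given below, called 0 of 13 mitochondrially encoded genes, mt-atp8 included. A lack of overlap between the formats was seen for 3.65% of all genes.

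**Figure D2:**
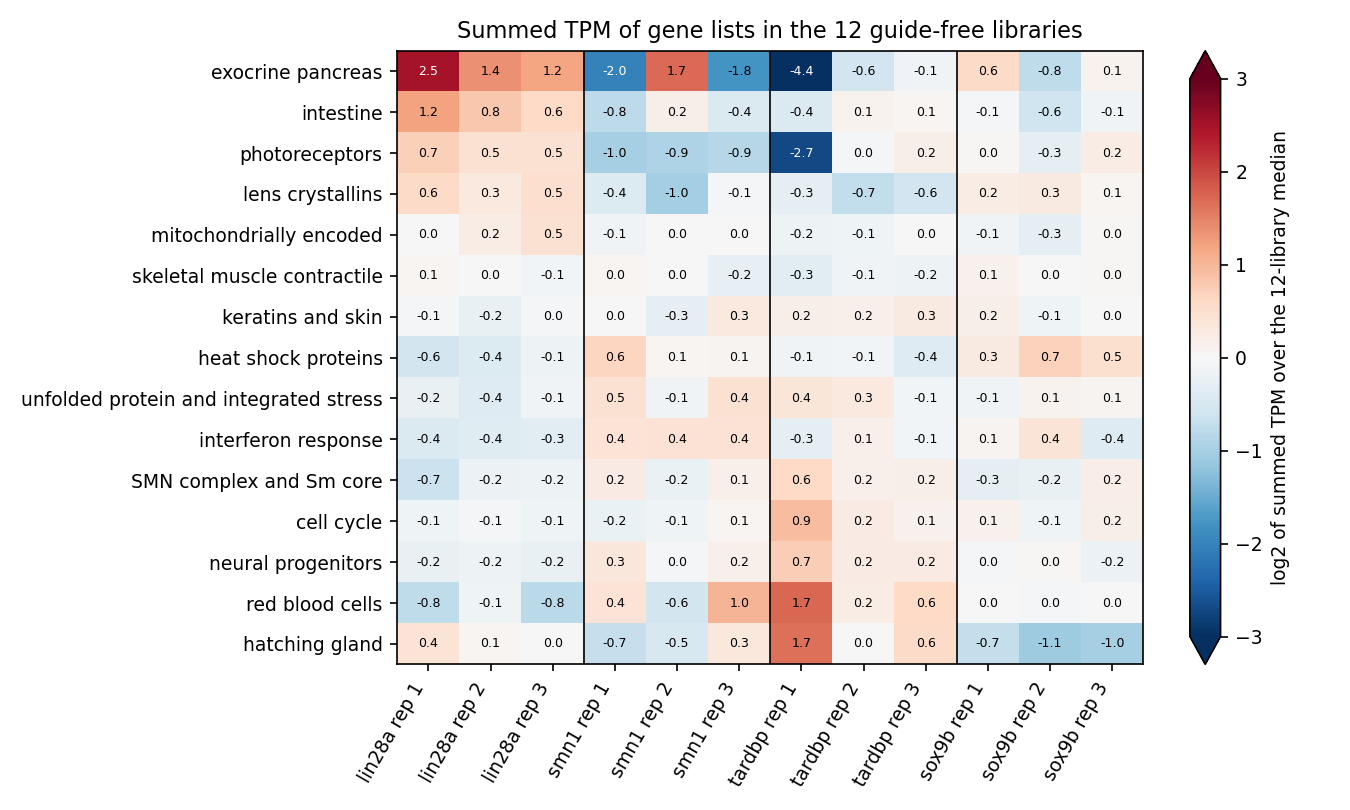
Summed TPM of 15 gene lists in each of the 12 guide-free libraries (columns, grouped by line), as log2 of the ratio to that list's 12-library median. Exocrine pancreas sums are highest in lin28a replicate 1 and lowest in tardbp replicate 1, where red blood cell and hatching gland sums are highest.

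Few genes passed the test among all 4 lines, and globins were among them. A limma F test over the 4 lines on log2(TPM + 1), across 20425 genes with at least 1 TPM in at least 3 of the 12 libraries, called 51 genes (0.250% of those tested, Benjamini-Hochberg adjusted p under 0.05), and 4069 genes had an unadjusted p under 0.05. Of the 51, 37 were lower in the lin28a line than in the other lines' mean and 14 were higher. In the comparison of the lin28a line with the other 3 below, 50 were also called, where 6.24% of all genes were. Both tests come from the same fit to the same libraries, so these 50 shared calls are not separate support. Of the 51, 5 were entries with a globin symbol: hbaa1, both entries of hbba1, hbbe3 and hbae1.1. Clone-named genes such as si:ch211-5k11.8, also among the 51, were not counted as globins, whatever they encode. For 37 of the 51 the lin28a libraries did not overlap the other 9, against 10.4% of all genes. Some, such as hbaa1, were low in the sox9b line as well. The gene of the 51 not called in the comparison of the lin28a line was oscp1a, chosen here for that reason after its values were seen. It was listed at 0, 0.596 and 0.559 TPM in the sox9b line and had 2.52 to 8.65 TPM in the other 9 libraries, with no overlap (F test, adjusted p = 0.0382). Regucalcin gene rgn, a liver gene also picked after its values were seen, was high in the smn1 line and low in both activation-component lines, with no overlap between those: it had 142, 113 and 106 TPM in the smn1 line, 54.0, 80.7 and 85.6 in the tardbp line, 27.1, 37.0 and 42.3 in the lin28a line and 41.1, 36.6 and 29.6 in the sox9b line (F test, adjusted p = 0.0124). Leaving out any 1 lin28a library brought the count to 0 or 1 gene. Without smn1 replicate 1 or sox9b replicate 1 it was 28 and 19, without sox9b replicate 2 it was 32, and without smn1 replicates 2 or 3, tardbp replicates 1 or 3 or sox9b replicate 3 it was 129, 190, 168, 102 and 141.

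Adult-type globins were read in the smn1 and tardbp lines and were at or near 0 in the lin28a and sox9b lines. Gene hbaa1 (ENSDARG00000097011), an adult alpha globin, had 69.7, 7.61 and 198 TPM in the smn1 line and 69.0, 125 and 132 TPM in the tardbp line, against 0, 0 and 0.539 TPM in the lin28a line and 0, 0.746 and 0 TPM in the sox9b line. The 6 libraries of the knockdown-component lines and the 6 of the activation-component lines did not overlap. The adult beta globin hbba1 is listed under more than 1 identifier. Entry ENSDARG00000097238 had 71.2, 5.55 and 186 TPM in the smn1 line and 46.6, 115 and 75.3 TPM in the tardbp line, against 0, 0 and 0 TPM in the lin28a line and 0.972, 0.551 and 0 TPM in the sox9b line. Entry ENSDARG00000089087 had 4.16 to 135 TPM in the knockdown-component libraries and 0 to 1.43 TPM in the activation-component libraries. Lower but alike in order were hbba2 (0.436 to 34.6 TPM, against 0 to 1.32 TPM, the groups overlapping through smn1 replicate 2) and hbaa2 (0 to 10.5 TPM, and listed at 0 in all 6 activation-component libraries).

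Together the 5 adult-type entries took 197, 17.8 and 559 TPM in the smn1 line and 184, 356 and 305 TPM in the tardbp line, against 0, 0 and 0.539 TPM in the lin28a line and 2.71, 2.72 and 0.472 TPM in the sox9b line. Even where present they were a small part of the TPM of the 15 entries with a globin symbol. Their share was 2.08, 0.380 and 3.80% in the smn1 line and 0.769, 4.26 and 2.81% in the tardbp line. Of the 10 embryonic-type entries, all except hbbe3 were read in every library, and the sums over the 10 overlapped: 9247, 4649.9 and 14141 TPM in the smn1 line and 23684, 8009.6 and 10521 TPM in the tardbp line, against 4029, 6384 and 3813 TPM in the lin28a line and 6848, 6758 and 7121 TPM in the sox9b line. Embryonic beta globin hbbe3, like the adult genes hbaa1 and hbba1, did not overlap between the component groups, with 28.2, 10.9 and 64.1 TPM in the smn1 line and 305, 30.0 and 18.5 TPM in the tardbp line, against 0, 1.18 and 0 TPM in the lin28a line and 0 in each sox9b library. Embryonic alpha globin hbae1.1 did not overlap either, with 286 to 815 TPM in the knockdown-component libraries and 42.6 to 268 TPM in the activation-component ones. The other 8 embryonic-type entries overlapped: hbbe1.1 had 921 to 3872 TPM in the knockdown-component libraries and 964 to 1881 TPM in the activation-component ones, and hbae3 had 968 to 4951 TPM against 993 to 2189 TPM. Globin genes are close copies of one another, so the share of each single gene is uncertain.

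A limma fit on the 4 line means, 2 lines against 2, called 5 genes between knockdown-component and activation-component lines (0.0245% of 20425), all of them higher with the knockdown components. At an unadjusted p under 0.05 there were 1542, and 283 genes (1.39%) had no overlap between 6 and 6 libraries. The 5 were hbaa1 (log2 difference 5.94, adjusted p = 0.0229), hbba1 (ENSDARG00000097238; 5.58, adjusted p = 0.0229), hbbe3 (5.14, adjusted p = 0.0408) and the clone-named genes si:ch211-5k11.8 (5.85, adjusted p = 0.0229) and si:dkey-22i16.7 (3.11, adjusted p = 0.0229). Gene si:ch211-5k11.8 had 7.91 to 180.5 TPM in the knockdown-component libraries and 0 to 0.733 TPM in the activation-component libraries. Among the knockdown-component libraries its lowest value was in smn1 replicate 2 and its highest in smn1 replicate 3, as for hbaa1. For si:dkey-22i16.7 the ranges were 230.5 to 1351 and 7.95 to 264 TPM, which overlapped. Each library of both knockdown-component lines had more hbaa1 than any activation-component library, whichever number format it was written in. None of the 5 calls was made without smn1 replicate 3 (adjusted p = 0.422 for each), without sox9b replicate 3 (adjusted p = 0.0567 to 0.392) or with no filter on low values, and 3 genes were called without lin28a replicate 1 or sox9b replicate 1. The kind of component, the strain background and the batch of the lines cannot be told apart with 2 lines of each kind.

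**Figure D3:**
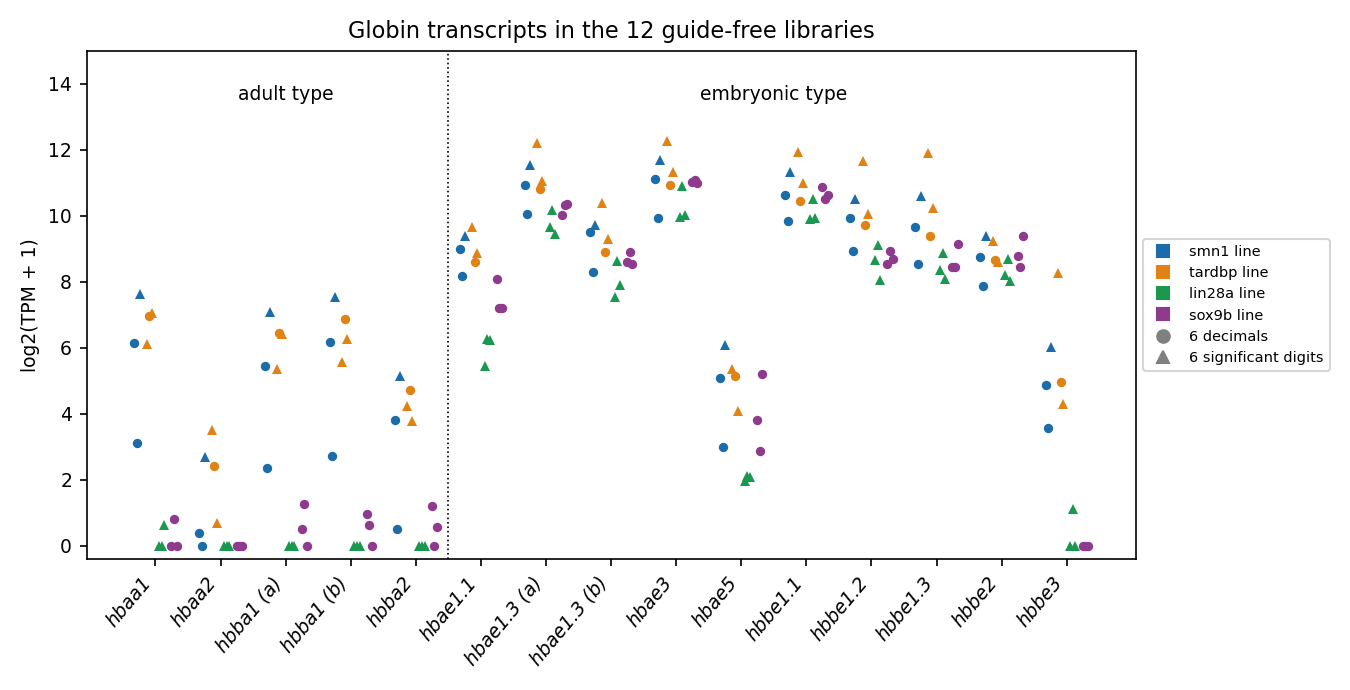
Levels of 15 globin entries in the 12 guide-free libraries as log2(TPM + 1), with 1 point per library, coloured by line and shaped by number format. Entries hbaa1, both hbba1 ((a) ENSDARG00000089087, (b) ENSDARG00000097238) and hbbe3 are higher in every smn1 and tardbp library than in any lin28a or sox9b library, which are at or near 0, while the embryonic-type genes other than hbbe3 are read in all 12.

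The lin28a line was the 1 line that stood apart from the rest across many genes. Set against the mean of the other 3 lines, limma called 1274 genes (6.24% of 20425): 437 were higher (2.14%) and 837 lower (4.10%). The 3 lin28a libraries did not overlap the other 9 for 2133 genes (10.4%), 863 higher (4.23%) and 1270 lower (6.22%). The median difference over all genes was -0.06 on the log2 scale. Its libraries also had the highest scores on the first principal component, 61.6, 46.4 and 48.7, against -76.0 to 11.0 in the other 9. All 3 lin28a libraries are written with 6 significant digits, and with number format as a further term 3 genes were called. In the libraries of that format alone, 3 lin28a against 3 others, 32 genes (0.157%) were called and 5485 (26.9%) did not overlap. Without 1 lin28a library (replicate 1, 2 or 3) the count was 38, 62 and 35. It was 405 without smn1 replicate 1, 486 and 429 without sox9b replicates 1 and 2, 658 without tardbp replicate 2 and 2136 without tardbp replicate 3. Without smn1 replicates 2 or 3, tardbp replicate 1 or sox9b replicate 3 it was 1230, 1881, 1502 and 1108. Of the 1274 genes, 1263 were still called without tardbp replicate 3, 401 without smn1 replicate 1 and 33 without lin28a replicate 3. The calls below thus depend on some libraries far more than on others, and most on those of the lin28a line.

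Genes of the digestive tract were prominent among those higher in the lin28a line. Among the 6 named genes of largest positive difference, enpp7.1, an intestinal sphingomyelinase, had 66.4, 55.3 and 45.5 TPM in the lin28a line, against 0 to 12.7 TPM in the other 9 libraries, a log2 difference of 3.35 (SE 0.74, adjusted p = 0.03). The pancreatic phospholipase gene pla2g1b had 21.5, 15.1 and 14.0 TPM in the lin28a line and 0 to 7.28 TPM elsewhere (log2 difference 2.77, SE 0.50, adjusted p = 0.0187). Syncollin sycn.3, a protein of the zymogen granule, had 73.4, 59.9 and 38.7 TPM, against 0 to 22.9 TPM (log2 difference 3.03, SE 0.74, adjusted p = 0.039). In each of the 3 genes tardbp replicate 1 was listed at 0, and the groups did not overlap, as the rule for naming these genes required. The sulfotransferase gene sult1st2 (log2 difference 3.00, SE 0.52, adjusted p = 0.0177) and the ammonium transporter gene rhcgl1 (log2 difference 2.82, SE 0.51, adjusted p = 0.0189) completed the set with NDUFB1, a complex I subunit. That gene had 31.2, 12.7 and 35.0 TPM in the lin28a line and 12.2 TPM in smn1 replicate 3, and was listed at 0 in the other 8 libraries (log2 difference 4.24, SE 0.63, adjusted p = 0.0117). Every library of 6 decimals listed it at 0, and smn1 replicate 3, like the lin28a libraries, is of 6 significant digits.

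In the intestine list, 12 of 40 tested members were called higher in the lin28a line and 0 lower, with a median log2 difference of 1.39. Among all genes tested 2.14% were called higher there. The fatty acid binding protein gene fabp2 had 1049, 614 and 583 TPM in the lin28a line, against 67.6 to 314 TPM (log2 difference 2.13, SE 0.45, adjusted p = 0.0257). Lactase gene lct had 23.8, 14.1 and 14.2 TPM, against 0.304 to 4.76 TPM (log2 difference 2.54, SE 0.41, adjusted p = 0.0159), and the amino acid transporter gene slc6a19a.1 27.0, 12.8 and 8.01 TPM, against 0.0456 to 4.03 TPM (log2 difference 2.69, SE 0.41, adjusted p = 0.0122). Cubilin (cubn) and amnionless (amn), the receptor pair that takes up protein in absorptive cells, differed by 0.92 and 1.38 on the log2 scale (adjusted p = 0.0348 and 0.041). In the exocrine pancreas list all 31 tested of 34 matched members had a positive difference, with a median of 2.48, and 4 were called higher. The 4 were pla2g1b, the elastase gene cela1.2 (2.02, adjusted p = 0.0357), the trypsin inhibitor gene spink4 (1.96, adjusted p = 0.0416) and the metalloprotease gene c6ast3 (2.13, adjusted p = 0.0323). Without smn1 replicate 2, 13 were called, 11 without tardbp replicate 3, 7 without tardbp replicate 1, 1 or 2 without smn1 replicate 1 or sox9b replicates 1 or 2, and 0 without any 1 lin28a library. The intestine calls numbered 5 or 6 without smn1 replicate 1 or sox9b replicates 1 or 2, and at most 1 without any 1 lin28a library. Trypsin gene prss1 had 3563, 1615 and 1386 TPM in the lin28a line, against 10.3 to 2044 TPM with the top value in smn1 replicate 2, and was not called (adjusted p = 0.132).

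Lens genes were called in 1 direction in the same line, where 2.14% of all genes were called higher and 4.10% lower. Of 51 tested lens crystallin genes, which encode the packed proteins of the lens fibre, 17 were called higher in the lin28a line and 0 lower, with a median difference of 0.65. The gamma M crystallin genes made up most of them: crygm2d11 had 328, 292 and 381 TPM in the lin28a line, against 37.9 to 198 TPM (log2 difference 1.74, SE 0.31, adjusted p = 0.0183), and crygm2d16 had 351, 293 and 368 TPM, against 108 to 309 TPM (log2 difference 0.96, SE 0.15, adjusted p = 0.0126). These genes lie in a family of near copies, and reads may be split among them. The sox9b line came next in level for crygm2d16, at 309, 287 and 233 TPM. It came next for the whole list too, with sums of 16130, 16757 and 14450.5 TPM. The lin28a libraries had 17032 to 20651 TPM, and the smn1 and tardbp libraries had 6839 to 13249 TPM. Each against the other 3 lines, the list's median difference was 0.356 in the sox9b line, -0.474 in the smn1 line and -0.535 in the tardbp line. Crystallin levels also moved with the number format within lines. Of the 51, 4 were called between formats, against 0.299% of all genes. The list's median difference, 6 decimals minus 6 significant digits, was -0.47. Levels were thus higher in the format of all 3 lin28a libraries. Among libraries of 6 significant digits alone the lin28a median difference was 0.74. Photoreceptor genes had a median difference of 0.92, with 4 of 55 called higher and 2 lower. Those higher were the rod phosphodiesterase subunit genes pde6a and pde6b (1.07 and 1.00), guca1d, which regulates guanylate cyclase (1.84), and recoverin gene rcvrna (1.23, 68.4, 77.2 and 94.2 TPM in the lin28a line, against 13.9 to 58.4 TPM). The photoreceptor transcription factor gene crx was lower, with 29.7, 41.5 and 35.2 TPM in the lin28a line, against 45.0 to 74.4 TPM (log2 difference -0.63, SE 0.17, adjusted p = 0.0461). Rhodopsin gene rho, at 1407, 1094 and 829 TPM in the lin28a line and 82.1 to 1373 TPM elsewhere, was not called (adjusted p = 0.232). Leaving out tardbp replicate 1, whose photoreceptor sum was the lowest, brought the photoreceptor calls to 26, and leaving out tardbp replicate 3 brought them to 22. Leaving out 1 of the other non-lin28a libraries except smn1 replicate 3 gave 1 to 3, and leaving out 1 lin28a library gave 0. For lens crystallins the calls numbered 26 and 31 without tardbp replicate 1 and smn1 replicate 3, 6 to 11 without smn1 replicate 1, tardbp replicate 2 or any 1 sox9b library, and at most 1 without any 1 lin28a library.

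Bone and ear genes gave a few calls, in a comparison where 2.14% of all genes were called higher and 4.10% lower. In the bone list 4 of 22 tested members were called higher and 0 lower. The list's median difference was 0.10, and 9 of the 22 were negative. The 4 called higher were col10a1a, a collagen of bone and hypertrophic cartilage (171, 182 and 179 TPM in the lin28a line, against 43.6 to 107 TPM; log2 difference 1.35, SE 0.25, adjusted p = 0.0198), osteopontin gene spp1 (1.40, adjusted p = 0.0241), ifitm5 (1.29, adjusted p = 0.0488) and entpd5a, needed for mineralisation in zebrafish (1.18, adjusted p = 0.0311). In the hair cell and otic list 5 of 23 were called higher and 0 lower, among them otoferlin gene otofa, which acts in vesicle release (14.5, 16.0 and 11.7 TPM in the lin28a line, against 1.93 to 10.4 TPM; log2 difference 1.34, SE 0.35, adjusted p = 0.0436), and pvalb8 (266, 233 and 215 TPM, against 37.9 to 184 TPM; log2 difference 1.17, SE 0.30, adjusted p = 0.0434). Contractile muscle genes had a median near 0 (0.0072), with 6 of 67 called higher and 2 lower. Titin genes ttn.1 and ttn.2 were higher (0.87 and 0.80, adjusted p = 0.0248 and 0.0246), and troponin T gene tnnt3a was lower, at 249.6, 328 and 289 TPM in the lin28a line, against 317 to 1200.5 TPM (log2 difference -1.08, SE 0.24, adjusted p = 0.0316). Skin genes were called in both directions, 4 of 47 each way: krt93 had 5.21, 3.35 and 1.95 TPM in the lin28a line, against 0 to 0.908 TPM (log2 difference 1.82, SE 0.26, adjusted p = 0.0107), and krt4 was lower as given above. Without smn1 replicate 1 or sox9b replicates 1 or 2 the calls numbered 2 each for bone and 4 each for muscle, and without any 1 lin28a library at most 1 for each of these lists.

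Heat shock genes were called lower more often than higher in the lin28a line. Of 39 tested heat shock genes 8 were called lower and 2 higher, and the median difference was -0.69. Among all genes tested, too, more were called lower (4.10%) than higher (2.14%). Inducible chaperone gene hsp70.3 had 17.7, 4.51 and 17.7 TPM in the lin28a line, against 23.7 to 398 TPM in the other 9 libraries (log2 difference -3.12, SE 0.68, adjusted p = 0.0291). Its values were 246, 183 and 179.6 TPM in the smn1 line, 48.5, 112 and 26.4 TPM in the tardbp line and 165, 398 and 23.7 TPM in the sox9b line. Gene hsp70l, whose promoter drives QFvpr in all of these lines, had 10.6, 6.45 and 13.8 TPM in the lin28a line, 232, 231 and 318 TPM in the smn1 line, 13.1, 38.3 and 4.55 TPM in the tardbp line and 181, 464 and 20.1 TPM in the sox9b line (log2 difference -2.82, SE 0.74, adjusted p = 0.045). The smn1 libraries were all high and the lin28a libraries all low, the tardbp libraries overlapped the lin28a range for hsp70l, and sox9b replicate 3 lay far below its sister libraries for hsp70l, hsp70.3 and hsp70.2. Paralogs hsp70l, hsp70.2 and hsp70.3 are close in sequence and may share reads. Small heat shock gene hspb8 (log2 difference -1.61, SE 0.37, adjusted p = 0.0321) and bag3, which pairs with it in clearing misfolded protein (log2 difference -0.77, SE 0.21, adjusted p = 0.0482), were lower too, and hspb6 was higher, at 25.0, 19.4 and 24.2 TPM in the lin28a line, against 2.52 to 18.2 TPM (log2 difference 1.51, SE 0.35, adjusted p = 0.0341). Constitutive chaperone gene hspa8 was not called, at 2504, 1749 and 2117 TPM, against 1598 to 2534 TPM (adjusted p = 0.795). The heat shock calls numbered 0 without any 1 lin28a library, 2 without smn1 replicate 1 or sox9b replicate 1, 3 without sox9b replicate 2 and 4 without tardbp replicate 2.

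The next 3 lists are set beside all genes tested, of which 4.10% were called lower and 2.14% higher. Endoplasmic reticulum stress genes had a median difference of -0.53, with 3 of 25 called lower and 0 higher. They were the chaperone gene hspa5 (92.9, 76.1 and 94.9 TPM in the lin28a line, against 109.9 to 298 TPM; log2 difference -0.99, SE 0.26, adjusted p = 0.0466), the stress transcription factor gene atf4a (126, 140.1 and 132 TPM, against 166 to 244 TPM; log2 difference -0.69, SE 0.13, adjusted p = 0.0204) and calreticulin calr3b (-1.19, adjusted p = 0.0356). Of 21 tested interferon response genes 5 were called lower and 0 higher, with a median of -0.63. The signalling factor irf9 had 5.66, 9.74 and 7.86 TPM in the lin28a line, against 14.7 to 25.8 TPM (log2 difference -1.29, SE 0.20, adjusted p = 0.0131), and the other 4, stat1b, the viral RNA sensor ifih1, the kinase pkz and b2m, had at most 13.2 TPM in any library. The SMN complex and Sm core list, the machinery that builds spliceosomal particles, had 6 of 27 called lower and all 27 differences negative, with a median of -0.32. Sm protein gene snrpf had 42.2, 51.1 and 57.7 TPM, against 74.4 to 213 TPM (log2 difference -1.31, SE 0.30, adjusted p = 0.0313), and snrpb 176, 186 and 158 TPM, against 210.5 to 422 TPM (log2 difference -0.56, SE 0.15, adjusted p = 0.0451). Without smn1 replicate 1 the calls in these 3 lists numbered 1, 1 and 0, without sox9b replicate 2 they numbered 1, 1 and 2, and without any 1 lin28a library at most 1 in each.

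The 6 named genes of largest negative difference held 2 heat shock genes, hsp70.3 and hsp70.2, and 4 others. Phosphatase gene ptpreb had the smallest adjusted p of this comparison, with 13.0, 18.9 and 24.6 TPM in the lin28a line, against 62.5 to 288 TPM (log2 difference -2.96, SE 0.26, adjusted p = 0.00147). The neurogenesis regulator hes6 had 27.2, 34.1 and 27.2 TPM, against 91.3 to 489 TPM (log2 difference -2.66, SE 0.34, adjusted p = 0.00457), and the chromatin remodelling gene mta2 had 59.8, 81.9 and 81.3 TPM, against 180.2 to 1182 TPM (log2 difference -2.68, SE 0.41, adjusted p = 0.0122). The oxygen sensor gene egln3 had 1.69, 3.49 and 3.35 TPM, against 8.64 to 54.7 TPM (log2 difference -2.58, SE 0.40, adjusted p = 0.013). For all 4 the lin28a libraries lay below the other 9, as the rule for naming them required. Among those 9 the highest value was in smn1 replicate 1 for ptpreb, hes6 and mta2 and in sox9b replicate 2 for egln3. Proliferation genes had a median of -0.27, with 3 of 56 called lower (aurka, ube2c (ENSDARG00000101618) and the chromatin protein gene hmga1a, at -1.05, -0.92 and -0.74) and 0 higher. Of all genes 4.10% were called lower. None of the 56 was called without any 1 lin28a library. Red blood cell genes had 6 of 32 called lower, all globins, and 0 higher, with a median of -0.38. The globin hbaa1, which was also called lower (log2 difference -4.00, SE 0.67, adjusted p = 0.0168), is not on that list. Without smn1 replicate 1 the list had 3 calls, and without any 1 lin28a library it had 1. One of the 6, hbae1.1, separated the lin28a line from the sox9b line too, with 42.6, 76.5 and 75.0 TPM in the lin28a line, 268, 148 and 147 TPM in the sox9b line and 286 to 815 TPM in the smn1 and tardbp lines (log2 difference -2.48, SE 0.30, adjusted p = 0.00455).

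**Figure D4:**
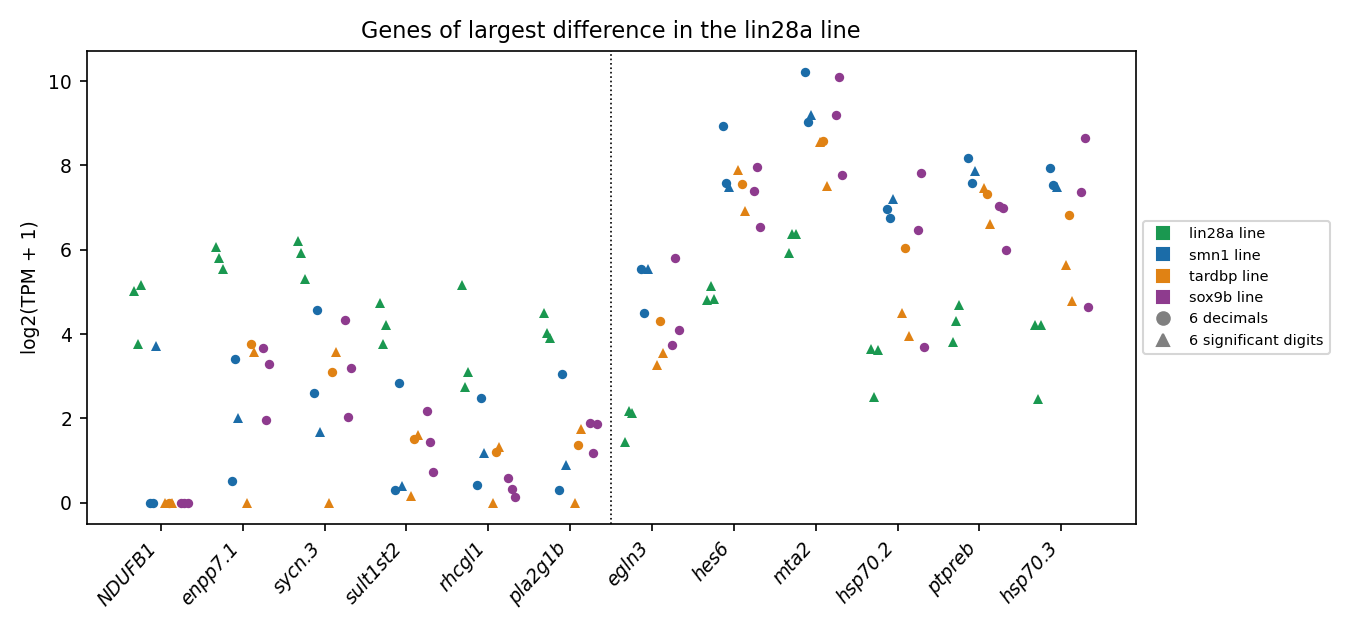
The 6 named genes of largest positive (left of the dotted line) and of largest negative difference in the lin28a line, as log2(TPM + 1), with 1 point per library, coloured by line and shaped by number format. By the rule that picked these genes, the 3 lin28a libraries lie above the other 9 on the left and below them on the right. The libraries of the other lines spread over several log2 units.

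The other lines gave no calls. Limma called 0 genes (0%) in the smn1, tardbp and sox9b lines, each against the other 3, with 1159 higher and 760 lower at an unadjusted p under 0.05 in the smn1 line, 1281 and 699 in the tardbp line and 1017 and 758 in the sox9b line. Their smallest limma adjusted p values were 0.0763, 0.106 and 0.143. Genes with no overlap between 3 and 9 libraries came to 250 (1.22%; 0.827% higher and 0.397% lower) in the smn1 line, 300 (1.47%; 1.27% higher and 0.201% lower) in the tardbp line and 264 (1.29%; 0.627% higher and 0.666% lower) in the sox9b line. In the smn1 line the level of hsp70l, 232, 231 and 318 TPM against 4.55 to 464 TPM elsewhere, did not pass (log2 difference 3.27, SE 0.743, adjusted p = 0.239). No gene was above 5 TPM in all libraries of 1 line and under 0.5 TPM in all others, or the reverse, in any of the 4 lines.

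The genes that the guides of these lines were designed for are set out here, with no guide present. Survival motor neuron gene smn1, a core subunit of the SMN complex, had 27.9, 24.6 and 26.4 TPM in the smn1 line, against 14.3 to 26.0 TPM elsewhere (adjusted p = 0.429). The RNA-binding protein gene tardbp had 146, 109 and 118 TPM in its own line, against 82.4 to 113 TPM (adjusted p = 0.504), and tardbpl 216, 197 and 180.2 TPM, against 120.1 to 180.2 TPM (adjusted p = 0.433). The cartilage regulator sox9b had 17.1, 18.4 and 18.2 TPM in its own line, against 6.73 to 17.4 TPM (adjusted p = 0.451), and its paralog sox9a 49.6, 70.2 and 43.1 TPM, against 16.9 to 57.8 TPM (adjusted p = 0.592). All 5 had a positive difference in their own line. For each of them the lin28a line had the lowest line mean. Those means were 17.0 TPM for smn1, 92.3 for tardbp, 139 for tardbpl, 27.3 for sox9a and 9.79 for sox9b. They are part of the mean subtracted, and so add to each positive difference. For tardbp and tardbpl the highest value of all libraries was in tardbp replicate 1. The unadjusted limma p was 0.0199 for smn1, 0.0393 for tardbp, 0.0124 for tardbpl, 0.00912 for sox9b and 0.0591 for sox9a. Since no gene was called in the smn1, tardbp and sox9b lines, the lack of a call does not show level expression. None of these 5 genes passed the test in its own line. Gene lin28a, which blocks maturation of let-7 microRNA and is known for early, undifferentiated cells, did: it was lower in its own line, at 0.310, 1.23 and 0.866 TPM, against 1.70 to 11.2 TPM in the other lines (log2 difference -1.89, SE 0.40, adjusted p = 0.0273). Its paralog lin28b was not called (4.56, 6.16 and 3.40 TPM in the lin28a line, against 0 to 16.3 TPM; adjusted p = 0.632).

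Genes that differed between number formats within lines were found in a test added after the data were seen. Both formats occur within the smn1 and tardbp lines, so a limma fit with line means and the format as a term could be made there, and 61 genes (0.299% of 20425) were called: 49 higher in libraries of 6 decimals (0.240%) and 12 lower (0.0588%). The sox9b libraries, all of 6 decimals, and the lin28a libraries, all of 6 significant digits, did not inform the estimate of that term. Their spread did enter the variance used to call genes. Set against each other, the sox9b and lin28a libraries gave the same direction for all 61 genes. For 58 (95.1%) the groups did not overlap in that direction, while 28.1% of all genes did not overlap. The 61 were picked partly for a small spread in these libraries too, so all genes are not a like background. Over all lines 746 genes (3.65%) had no overlap between 6 and 6 libraries. Of the 61, 11 (18.0%) were also called in the lin28a line, where 6.24% of all genes were. They are 0.863% of the lin28a calls.

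Between replicates of 1 line some of these genes differed by a large factor. The gene emc4, a subunit of a membrane protein insertase, had 296, 285 and 2.46 TPM in the smn1 line and 1.94, 232 and 15.2 TPM in the tardbp line, the high values being those written with 6 decimals. Over all lines it had 107 to 296 TPM with 6 decimals and 1.94 to 27.8 TPM with 6 significant digits (log2 difference 5.74, SE 0.53, adjusted p = 0.000727). The ypel5 gene had 26.3 to 48.1 TPM with 6 decimals and 4.85 to 6.97 TPM with 6 significant digits (log2 difference 2.61, SE 0.20, adjusted p = 0.000357), nipsnap2 had 40.6 to 55.8 and 2.99 to 7.78 TPM (log2 difference 3.13, SE 0.26, adjusted p = 0.00052), and the prolyl isomerase gene fkbp3 42.1 to 67.4 and 5.98 to 11.3 TPM (log2 difference 2.51, SE 0.24, adjusted p = 0.000727). Polyubiquitin gene ubb went the other way, with 17.5 to 29.6 TPM with 6 decimals and 224 to 397 TPM with 6 significant digits (log2 difference -3.32, SE 0.22, adjusted p = 0.000155). It has close copies that may share its reads. The receptor gene notch1a (log2 difference -1.80, SE 0.32, adjusted p = 0.0477) and the ferritin gene fthl31 (log2 difference -1.54, SE 0.18, adjusted p = 0.00393) were lower with 6 decimals as well. Under the alternative settings described below, the notch1a call was kept in 3 and lost in 15, and the fthl31 call was kept in 16 and lost in 2. For emc4, ypel5, nipsnap2, fkbp3 and ubb no library of one format reached the level of any library of the other, which the rule that picked these genes required. What set the 2 formats apart was not tested, and the role of each processing tool by library is not given in the sources used here.

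**Figure D5:**
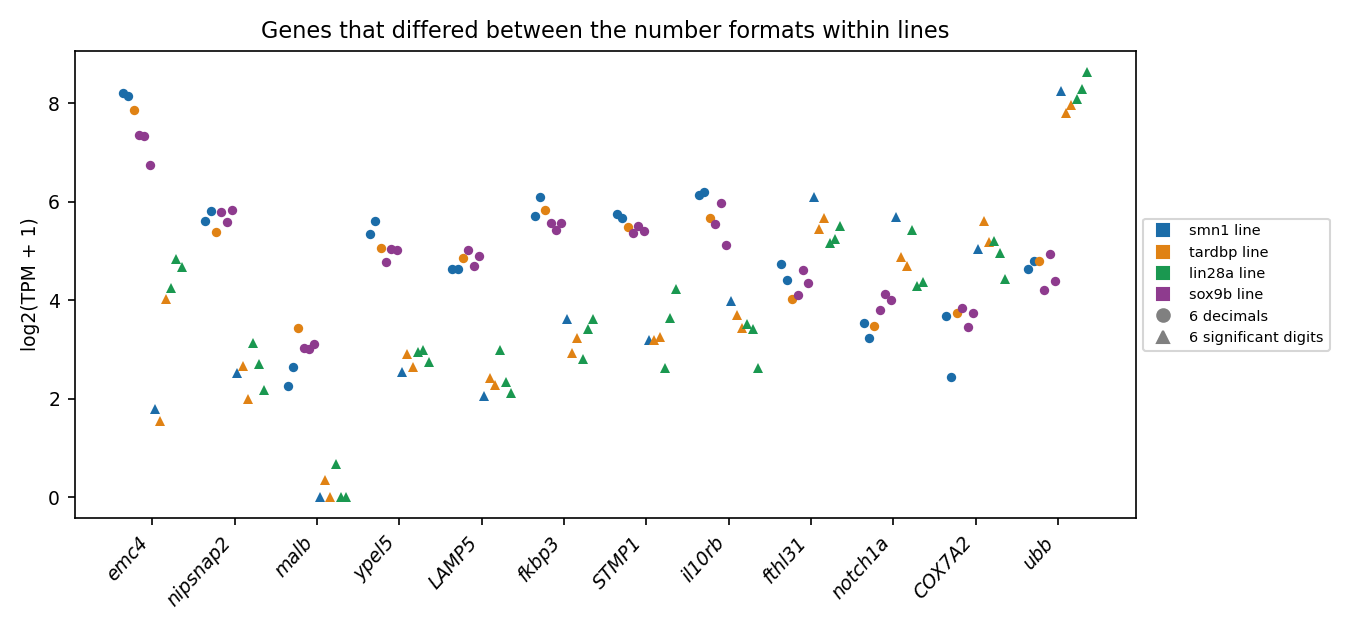
The 12 named genes called between number formats within lines, as log2(TPM + 1), with libraries of 6 decimals (circles) left of those of 6 significant digits (triangles) for each gene, and colour by line. The genes were picked for having no overlap between formats: the first 8 are higher in all 6 libraries of 6 decimals, and the last 4 are lower. Both formats occur within the smn1 and tardbp lines alone.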

How the data were processed

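RNA sequencing of whole embryos was deposited as TPM per gene, in 1 table for each line with 25432 genes, as read from the file headers. The submitters' processing notes list the tools Salmon 1.10.1, STAR 2.7.10b and Trimmomatic 0.39 beside GRCz11 (danRer11) as the build, with no role, order or library given. RNA came from TRIzol or RNAiso Plus extraction, at least 1 µg per sample, and a sequencing company made the libraries, per the labels' protocols. TPM carry no depth, so a gene listed at 0 may be unread or a failed estimate. One table also has 13 unnamed columns that hold no values.

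The 12 guide-free columns were joined by Ensembl identifier, since 684 entries repeat a symbol, and put on a log2(TPM + 1) scale without any further normalization. Genes with at least 1 TPM in at least 3 libraries were tested with limma 3.58.1 in R 4.3.3 (trended prior, two-sided, Benjamini-Hochberg threshold 0.05): an F test over 4 lines, each line against the mean of the other 3 line means, and knockdown-component against activation-component line means. Line shares of the TPM were compared by an exact permutation test of the F statistic, whose smallest possible p was 6.49e-05. The scripts were tested on simulated data. Replicate numbers were not used to pair libraries across lines in the main fits.

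Named genes were the 20 most abundant; the 12 of smallest SD with a mean of at least 20 TPM and 38 reference genes; the 15 of largest pooled within-line SD with a mean of at least 10 TPM; up to 6 highest and 6 lowest called, non-overlapping differences per line; and genes at 5 TPM or more in 1 line and under 0.5 TPM elsewhere, or the reverse. The same rule of size, among called genes without overlap between the formats, picked 12 number-format genes, and clone-coded symbols were passed over. The 4 target genes, their paralogs and hsp70l are given in every case. List members given as examples, and genes said to be so, were chosen after their values were seen. The members and all 46 gene lists (1370 of 1451 symbols matched) were chosen with earlier results of these data known; 1 further reference gene is not reported here. Alternatives were pseudocounts of 0.1 and 5, other filters, scalings and priors, library weights, a replicate block, number format as a term and each library left out; the number-format tests were added after the data were seen.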

Additional observations from a re-analysis of the deposited data

How the results depend on the processing

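None of the 174 named-gene results followed through the alternatives changed sign. Apart from the genes given in every case, the 174 were followed because they had passed a test in these same data, so a steady sign adds little. Genes named for abundance, steadiness or spread within lines were not all among the 174. For the lin28a line 5 of 22 list medians did change sign, and the number of calls changed widely. Those medians were -0.10 with no filter and -0.13 with number format as a term for the hatching gland, -0.18 with library weights for immediate early genes, down to -0.04 for contractile muscle, -0.09 without lin28a replicate 2 for muscle chaperones and -0.0025 without lin28a replicate 2 for bone. For the lin28a line the count of 1274 was 8583 with library weights (a fit that did not fully converge), 3 with number format as a term, 32 in libraries of 6 significant digits, and 35 to 2136 with 1 library left out. For the F test, 51 became 93 with a pseudocount of 5, 88 with median centring, 135 with quantile normalization, 32 without a trend in the prior, 11715 with library weights, 18 with number format as a term and 0 to 190 with 1 library left out. For the smn1 line, 0 became 1 with no filter, 2 with median centring, 2 with quantile normalization, 980 with library weights and 0 to 34 with 1 library left out. The tardbp line gave 10 with library weights and 0 to 13 in leave-outs, and the sox9b line 7808 with library weights, 1 in libraries of 6 decimals and 0 to 5 in leave-outs. Between knockdown-component and activation-component lines, 5 became 2 with a pseudocount of 0.1, 2 with a pseudocount of 5, 0 with no filter and 0 to 6 in leave-outs. Number-format calls, 61, became 31 with median centring and 10 to 79 in leave-outs. The cause of these changes was not tested, beyond the loss of libraries in the leave-outs. The gap between line means was 1.43 to 3.00 percentage points for the mitochondrial share in leave-outs and 1.46 to 2.63 for the top 100 genes, where the top 20 genes gave 2.93. The median lin28a difference over all genes moved by under 0.1.

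With the replicate block, the counts were 43 for the F test and 1145 for the lin28a line, and the mitochondrial gap of 2.24 had p = 0.0399 by the exact permutation test within replicate numbers. Whether the replicate numbers mark a shared day or clutch is not stated and was not tested. Of 18 same-numbered pairs of libraries, 4 had deviations correlated above 0.1 (range -0.227 to 0.385). Among the libraries, 7 of 12 correlated best with a library of another line that had their own number. The fits of a single line against the others gave 179 followed results, of which 22 were list medians without a p-value. Some of the named genes among them, such as smn1 in the smn1 line, had not passed in the main fit. Named genes no longer past the threshold numbered 28 with the block and 49 with no filter. They numbered 148 with number format as a term and 0 to 145 with 1 library left out. These counts are thus out of fewer than 179 passing results. Depth is unknown, so what it limits cannot be stated.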

Other observations

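A few immediate early and hormone response genes were called higher in the lin28a line, where 2.14% of all genes were. In the immediate early list, genes switched on within minutes of a stimulus, 2 of 25 tested were called higher in the lin28a line and 0 lower, with a median log2 difference of 0.56. The orphan receptor gene nr4a1 had 53.8, 9.29 and 12.4 TPM in the lin28a line, against 3.31 to 9.52 TPM in the other lines (log2 difference 1.56, adjusted p = 0.0466), and fosab, which was not called, had 152, 2.45 and 25.5 TPM in the lin28a line, against 2.77 to 23.5 TPM. In both, lin28a replicate 1 was the highest of the 12 libraries. The glucocorticoid response list showed the same order: its summed level was 1729, 609 and 674 TPM in the lin28a line, against 317 to 1253 TPM, and 2 of 21 were called higher and 0 lower. The cortisol-responsive gene tat, a tyrosine aminotransferase, had 55.9, 18.1 and 23.0 TPM in the lin28a line, against 1.53 to 19.1 TPM (log2 difference 1.81, adjusted p = 0.049), and fkbp5 had 134, 46.9 and 36.9 TPM in the lin28a line, against 10.8 to 88.7 TPM with no call (adjusted p = 0.32). Both list counts were 0 without lin28a replicates 1 or 3, smn1 replicate 1, tardbp replicate 2 or sox9b replicate 2. The immediate early count was also 0 without smn1 replicate 2 or sox9b replicates 1 or 3. The glucocorticoid count was also 0 without lin28a replicate 2. It was 1 without smn1 replicate 3, tardbp replicate 1 or sox9b replicates 1 or 3. Circadian clock genes had a median of 0.46 and no call among 35.

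In the liver list 5 of 39 tested members were called higher and 1 lower in the lin28a line, where 2.14% and 4.10% of all genes were. The list's summed level overlapped between lines (22262, 19707 and 20049 TPM in the lin28a line, against 16290.1 to 23098 TPM). The calls numbered 13 without tardbp replicate 3, 1 or 2 without smn1 replicate 1, tardbp replicate 2 or sox9b replicates 1 or 2, and 0 without any 1 lin28a library. The protease inhibitor gene serpina1 had 288, 225 and 240.0 TPM in the lin28a line, against 107 to 229 TPM (log2 difference 0.71, adjusted p = 0.0498). Heart stress gene ankrd1b was higher, with 111, 103 and 109.8 TPM in the lin28a line, against 13.1 to 54.0 TPM (log2 difference 1.85, adjusted p = 0.0093), and the muscle intermediate filament gene desma was lower, with 174, 184 and 151 TPM in the lin28a line, against 210.1 to 494 TPM (log2 difference -0.99, adjusted p = 0.0179). Hatching enzyme gene he1.1 varied widely within lines: it had 27.96, 0.221 and 30.9 TPM in the smn1 line, 329, 60.4 and 109 in the tardbp line, 1.84, 11.7 and 19.8 in the lin28a line and 7.55, 1.48 and 9.17 in the sox9b line, and the limma F test did not call it (adjusted p = 0.142).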
